A study of Mus musculus with 24 samples.

Results

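Microglia and macrophage genes were followed in brain and liver RNA from wild-type mice and 3 tRNA-Phe knockout lines. The group held 10 genes (Aif1, Cx3cr1, P2ry12, Tmem119, C1qa, C1qb, C1qc, Trem2, Csf1r and Itgam) of the 55469 rows of each deposited table, and each was found by the Ensembl identifier that carries its symbol. The 24 libraries came from male C57BL/6N mice, 10 weeks old per the study's reporting summary, on normal chow. In each tissue there were 3 samples of WT littermate-matched mice and 3 of each line homozygous for a CRISPR-Cas9 deletion of a single gene: tRNA-Phe-1-1-/- (the labels add the anticodon, as in tRNA-Phe-GAA-1-1-/-), then tRNA-Phe-2-1-/- and, as the last, tRNA-Phe-3-1-/-. The deletions are in the germline and so in every cell type. The paper names total brain and liver RNA, while the deposited extraction protocol mentions 3 mm pieces. How much of each brain or liver went into an RNA sample is therefore unclear. The nuclear tRNA genes have no row in these tables, so the deletions could not be checked in them.

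Microglia are the resident macrophages of the brain, and Kupffer cells are those of the liver. Both depend on signalling through the receptor CSF1R, and both make C1q, the molecule that starts the classical complement pathway. Microglia in the healthy brain are further known for sensing neurons and injury through the receptors CX3CR1 and P2RY12 and for the surface protein TMEM119. TREM2 is a lipid-sensing receptor that signals through the adaptor TYROBP, AIF1 (Iba1) is an actin-binding protein of macrophages, and ITGAM (CD11b) is an integrin chain of macrophages, monocytes and neutrophils.

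In the brain, none of the 10 genes passed the test against WT in any line. The 4 largest positive log2 differences of tRNA-Phe-1-1-/- brains from WT, 0.27 to 0.42, were those of Tmem119 and the 3 C1q chains. Of the 10 genes 5 lay above WT there, with a median log2 difference of 0.03, and the lowest was Trem2 at -0.26. Tmem119 was higher in tRNA-Phe-1-1-/- than in tRNA-Phe-3-1-/- brains, and this was the only call in the brain. In the liver, Itgam was higher in tRNA-Phe-1-1-/- than in both other lines, Tmem119 was higher and P2ry12 lower in tRNA-Phe-1-1-/- than in tRNA-Phe-3-1-/-, and none passed against WT. Cx3cr1, P2ry12, Tmem119, Trem2 and Itgam were far lower in liver than in brain. C1q chains and Csf1r were nearer, with WT brain-to-liver ratios of 1.20 (C1qa), 1.03 (C1qb), 0.999 (C1qc) and 1.39 (Csf1r).

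All libraries were deep, with between 30365760 and 46225360 recovered reads per brain and between 32276896 and 51584522 per liver sample. Tissue labels were checked against defining genes: the neuronal gene Snap25 had 978 to 1860 RPM in the brain (recovered reads of a gene, scaled per library to the usual RPM unit) and at most 0.0804 in the liver, and albumin (Alb) had 31126 to 58981 in the liver. Alb ranged from 0.0928 to 25.7 RPM among the brain libraries, and the choroid plexus gene Ttr from 0.145 to 1443. Of the Kupffer cell markers, Clec4f, Vsig4, Timd4, Marco and Cd5l had at most 5 reads in any brain library. Others on that list were detected in the brain, such as Adgre1 (151 to 293 reads), and 7 of its 13 genes were abundant enough to test there. The liver Kupffer markers Clec4f and Cd5l were at 60.1 to 102 and 46.9 to 111 RPM. The brain microglia markers Siglech (8.40 to 12.2) and Gpr34 (8.89 to 12.8) were present in every brain library.

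The 3 C1q genes lie next to each other on chromosome 4 (GRCm38.p6), C1qb at chr4:136880126-136886200, C1qc at chr4:136889801-136892936 and C1qa at chr4:136895916-136898844, within 18719 bases. Itgam lies at chr7:128062640-128118491, Cx3cr1 at chr9:120048683-120068296, P2ry12 at chr3:59216271-59262985 and Tmem119 at chr5:113793729-113800396. Trem2 (chr17:48346401-48352276) and Aif1 (chr17:35170986-35176083) are both on chromosome 17. These coordinates span the whole gene with its introns, from RefSeq.

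The sequence before the start of 4 of these genes is shown because Itgam was the member with the lowest F-test p in the liver, C1qb and C1qc are neighbours whose levels are compared below, and Trem2 has the fewest reads of the group in WT liver. Each line gives the 250 bases before the start, 5′ to 3′ on the gene's strand, from RefSeq in GRCm38.p6 (for C1qc the start used there lies just inside the span given above). Capitals mark GAGGAA or its reverse complement TTCCTC, the purine-rich core that the macrophage factor PU.1 (Spi1) is known to bind.
C1qb, chr4:136886201-136886450, minus strand: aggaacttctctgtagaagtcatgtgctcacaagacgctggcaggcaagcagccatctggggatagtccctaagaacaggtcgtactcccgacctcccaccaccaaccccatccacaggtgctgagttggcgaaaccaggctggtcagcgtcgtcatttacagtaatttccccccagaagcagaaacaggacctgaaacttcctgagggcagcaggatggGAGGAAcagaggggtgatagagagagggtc
C1qc, chr4:136892915-136893164, minus strand: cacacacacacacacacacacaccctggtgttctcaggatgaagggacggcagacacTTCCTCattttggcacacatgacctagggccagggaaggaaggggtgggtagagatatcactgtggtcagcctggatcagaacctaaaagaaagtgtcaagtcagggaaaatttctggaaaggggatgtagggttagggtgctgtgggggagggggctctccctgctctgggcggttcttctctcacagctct
Trem2, chr17:48346151-48346400, plus strand: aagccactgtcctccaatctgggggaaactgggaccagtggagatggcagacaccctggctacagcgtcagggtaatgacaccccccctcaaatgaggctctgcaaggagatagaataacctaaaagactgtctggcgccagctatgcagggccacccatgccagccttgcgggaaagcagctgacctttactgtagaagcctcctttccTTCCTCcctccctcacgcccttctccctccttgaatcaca
Itgam, chr7:128062390-128062639, plus strand: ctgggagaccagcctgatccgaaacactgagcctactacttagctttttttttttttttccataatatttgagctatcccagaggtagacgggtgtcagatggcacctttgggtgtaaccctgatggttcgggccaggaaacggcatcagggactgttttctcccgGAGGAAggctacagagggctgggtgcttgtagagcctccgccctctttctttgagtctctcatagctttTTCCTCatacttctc

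RefSeq's promoter table held 7 of the 10 genes (Tmem119, C1qa and Csf1r have no entry). GAGGAA was found on either strand in 5 of the 7 (Aif1, C1qb, C1qc, Trem2 and Itgam) and in 23.3% of all 32851 promoter windows of the same length. Itgam held it at 2 places, starting 84 and 15 bases before the start. In Aif1 it started 7 bases before the start, in C1qb 30, in Trem2 40 and in C1qc 193. CACGTG, the E-box that MITF and TFE factors bind, was found in P2ry12 alone of the 7, and in 6.02% of all windows. The 2 motifs do not overlap in letters. A match is a description of these letters and not evidence of binding.

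Levels are given first as normalised counts, the read estimates of a library divided by its size factor, in the order of replicates A, B and C. Tmem119 had 552, 649 and 598 in WT brains and 797, 788 and 822 in tRNA-Phe-1-1-/- brains. It had 602, 524 and 469.6 in tRNA-Phe-2-1-/- and 636, 541 and 486 in tRNA-Phe-3-1-/- brains. All 3 tRNA-Phe-1-1-/- brains lay above the other 9, which overlapped one another. The log2 difference from WT was 0.42 ± 0.12 (SE) with an adjusted p of 0.120 in limma, and DESeq2 on recovered reads gave 0.42 with an adjusted p of 0.0355. Set against tRNA-Phe-3-1-/-, Tmem119 was higher by 0.54 ± 0.12 on the log2 scale and passed (adjusted p = 0.0451). The difference from tRNA-Phe-2-1-/- was 0.60 ± 0.12 and did not (adjusted p = 0.0544). The call against tRNA-Phe-3-1-/- was narrow: it was lost without any 1 of the 6 libraries except tRNA-Phe-3-1-/- replicate A, with adjusted p from 0.0489 to 0.140.

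The C1q chains form one protein, with each subunit made of the A, B and C chains. C1qb had 802, 792 and 733 in WT brains against 948, 1209 and 980.0 in tRNA-Phe-1-1-/- brains. C1qa had 1161, 1094 and 1119 in WT and 1236, 1479 and 1366 in tRNA-Phe-1-1-/-. C1qc had 945, 931 and 882 in WT and 1059.9, 1153 and 1111 in tRNA-Phe-1-1-/-. For each chain the 3 tRNA-Phe-1-1-/- values lay above the 3 WT values without overlap. The share of all genes whose groups separate in this way is not given here, so nothing is read from separation, for these or the other members. The log2 differences were 0.42 ± 0.12 for C1qb, 0.27 ± 0.08 for C1qa and 0.27 ± 0.08 for C1qc, and none passed (adjusted p = 0.115, 0.151 and 0.142 in limma). With DESeq2 on recovered reads C1qb alone of the chains passed against WT (adjusted p = 0.0305).

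In the other lines the chains stayed near WT. C1qb had 804, 829 and 639 in tRNA-Phe-2-1-/- and 787, 789.8 and 734 in tRNA-Phe-3-1-/- brains, and its log2 differences from WT were -0.04 and -0.01. C1qa differed by 0.01 and 0.10 and C1qc by -0.02 and 0.07, with standard errors of 0.08. The ratio of C1qb to C1qa within a library ranged from 0.655 to 0.724 in WT, from 0.718 to 0.818 in tRNA-Phe-1-1-/-, from 0.595 to 0.726 in tRNA-Phe-2-1-/- and from 0.606 to 0.663 in tRNA-Phe-3-1-/- brains. The 4 ranges join or overlap except that of tRNA-Phe-1-1-/- against tRNA-Phe-3-1-/-.

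Trem2 had 311, 351 and 309 in WT brains and 254, 255 and 299.6 in tRNA-Phe-1-1-/- brains. All 3 were below the WT range, and the log2 difference of -0.26 ± 0.14 did not pass (adjusted p = 0.401). In tRNA-Phe-2-1-/- brains Trem2 had 367, 340.5 and 252 and in tRNA-Phe-3-1-/- brains 317, 353 and 301, both spanning the WT values.

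The remaining receptors and markers overlapped WT in every line. Cx3cr1, the receptor of the neuronal chemokine fractalkine, had 1184, 1412 and 1201 in WT and 1156, 1215 and 1245 in tRNA-Phe-1-1-/- brains. P2ry12, an ADP receptor, had 1009, 1054 and 997 in WT and 1004, 902 and 971 in tRNA-Phe-1-1-/-. Csf1r (chr18:61105572-61131139) had 2156, 2791 and 2164 in WT and 2572, 2419 and 2487 in tRNA-Phe-1-1-/-. Over the 3 lines, log2 differences from WT ranged from -0.07 to 0.14 for Cx3cr1, from -0.09 to 0.08 for P2ry12, from 0.01 to 0.09 for Csf1r and from -0.03 to 0.10 for Itgam. Aif1 had 115, 107 and 98.2 in WT, and its lowest value was 61.2 in a tRNA-Phe-3-1-/- brain, with log2 differences from -0.23 to -0.06.

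**Figure D1:**
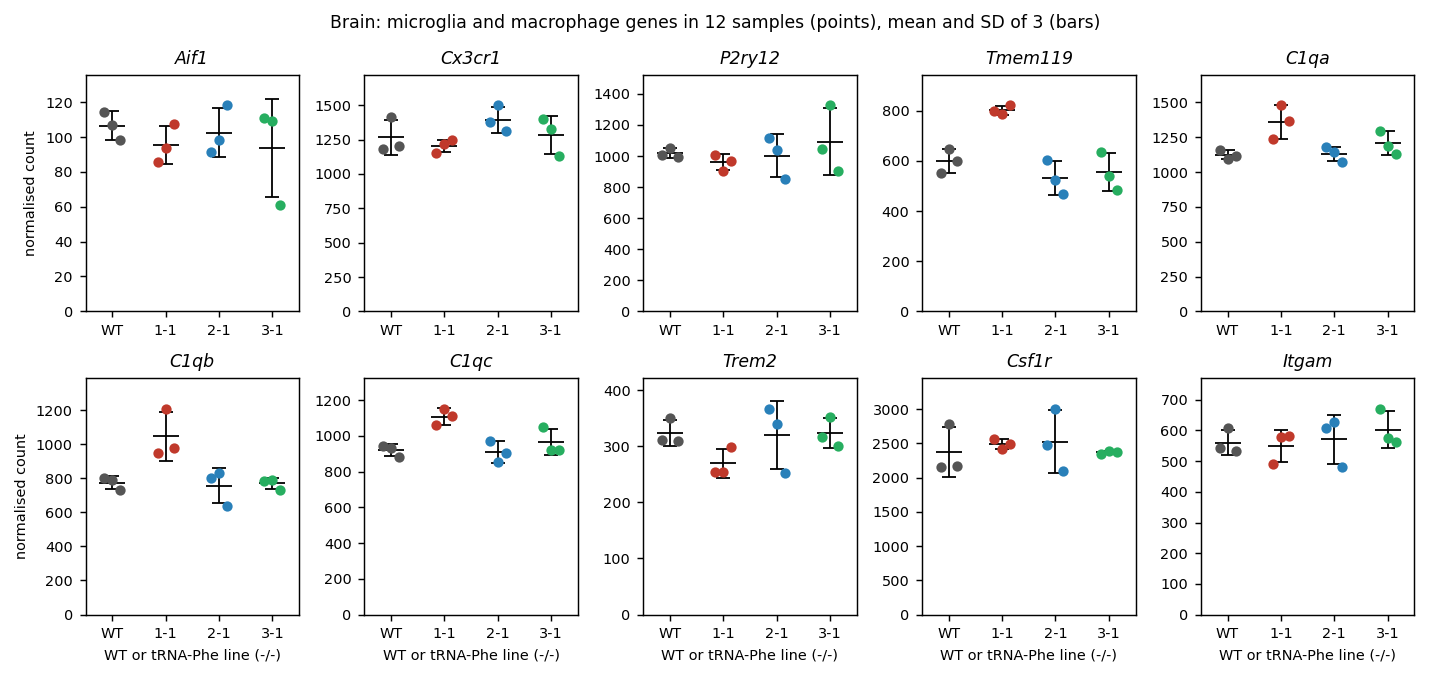
Normalised counts (y axis, from 0) of the 10 genes in the 12 brain samples, by genotype (x axis). Points are samples A, B and C from left to right, and bars are the mean and SD of 3. Tmem119, C1qb and, by a narrow margin, C1qc are higher in all 3 tRNA-Phe-1-1-/- samples than in the other 9, while the remaining panels show overlapping groups or smaller steps.

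By count, 0 of the 10 genes were called by limma in tRNA-Phe-1-1-/- against WT brains, where 1.05% of the 19228 genes tested were called. At an unadjusted p under 0.05 there were 4 members beside 3063 of all genes. edgeR called 0 members beside 187 of all genes, and DESeq2 2 beside 874. Against WT, brains of tRNA-Phe-2-1-/- had 0 members called by limma, beside 0% of all genes, and 0 at an unadjusted p under 0.05, beside 1071 genes. Those of tRNA-Phe-3-1-/- likewise had 0 and 0, beside 0% and 2373 genes. In both lines edgeR called 0 members and 0 genes, and DESeq2 called 0 members beside 21 and 373 genes. Between tRNA-Phe-1-1-/- brains and those of tRNA-Phe-2-1-/-, limma called 0 members beside 0.53% of all genes. There 4 members had an unadjusted p under 0.05 beside 2631 genes, and edgeR called 0 beside 108 and DESeq2 3 beside 671. Between tRNA-Phe-1-1-/- brains and those of tRNA-Phe-3-1-/- it called 1 member beside 2.11%. Brains of tRNA-Phe-2-1-/- set against those of tRNA-Phe-3-1-/- gave 0 members in limma and 0% of all genes. There 0 members had an unadjusted p under 0.05 beside 1910 genes, and edgeR and DESeq2 called 0 beside 0 and 166. The F-test of any difference among the 4 genotypes called 0 members and 0.634% of all genes. Unadjusted it gave 4 members beside 3387 genes, with edgeR 0 beside 143 and with DESeq2 3 beside 1582. The median log2 difference of the 10 genes from WT was 0.03, -0.02 and 0.02 in the 3 lines, beside -0.00059, -0.0016 and 0.0018 over all genes tested.

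Bulk tissue cannot tell fewer cells of a type from less RNA per cell, which holds for every value here. Other markers also differed between tRNA-Phe-1-1-/- and WT brains. The 9 markers of macrophages at the brain's borders, all detected in each group, summed to 46.6 to 62.7 RPM in tRNA-Phe-1-1-/- and to 23.5 to 32.2 in WT, with 0 of 9 called (median log2 difference 0.87); these cells also make C1q. F13a1, a coagulation factor chain typical of them, had 257, 239 and 209 against 121, 76.1 and 119 in WT (log2 difference 1.18 ± 0.26, adjusted p = 0.059). The 8 oligodendrocyte markers, all above 0, summed to 1308 to 2500.1 RPM in tRNA-Phe-1-1-/- against 3368 to 4147 in WT, with Opalin lower (-2.19 ± 0.37, adjusted p = 0.0256) and the other 7 not called. The oligodendrocyte sums of tRNA-Phe-2-1-/- (1895 to 4638 RPM) and tRNA-Phe-3-1-/- brains (2359 to 5281) overlapped both of these ranges. The part of these cell types in the result was not tested.

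Other genes of microglia were taken from fixed lists. Of 15 further homeostatic microglia genes 14 were tested, and 0 were called against WT in any line in the brain. Their summed level was 406 to 435 RPM in tRNA-Phe-1-1-/- and 414 to 439 in WT brains. Compared with brains of tRNA-Phe-3-1-/-, those of tRNA-Phe-1-1-/- were lower in P2ry13, a receptor related to P2ry12 (log2 difference -0.51 ± 0.11, adjusted p = 0.0417), and higher in Golm1, a Golgi membrane protein (0.57 ± 0.13, adjusted p = 0.0449). That is 1 lower and 1 higher of 14 tested, beside 2.11% of all genes called in that comparison, and nothing is read from the count. P2ry13 had 261, 281 and 275 in tRNA-Phe-1-1-/-, 322, 359 and 363 in WT and 408, 394 and 365 in tRNA-Phe-3-1-/- brains. Of 21 genes of activated microglia 15 were tested and 0 were called in any brain comparison, and Lyz2 (lysozyme) had the lowest F-test p, with 0.56 ± 0.16 against WT (adjusted p = 0.115). Of 14 partners and ligands of the receptors (Csf1, Il34, Cx3cl1, Tyrobp, Spi1 and others) 13 were tested and 0 were called, and of 11 further complement genes 0 were called.

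Calls of other lists in the brain stand beside 1.05% of all genes in tRNA-Phe-1-1-/- against WT. The Kupffer, endothelial and oligodendrocyte lists lay above that share, with 7, 7 and 8 genes tested. The 1 oligodendrocyte gene called was Opalin, given above. Of the Kupffer list 7 of 13 genes were tested, and in tRNA-Phe-1-1-/- against WT Il18bp, the IL-18 binding protein, was higher (0.50 ± 0.10, adjusted p = 0.0422) and the iron exporter Slc40a1 was lower (-0.81 ± 0.12, adjusted p = 0.0175), both of which are also made outside Kupffer cells. Of 7 endothelial genes tested, Cldn5, a tight junction protein (-0.54 ± 0.08, adjusted p = 0.016), and Tek, an angiopoietin receptor (-0.47 ± 0.08, adjusted p = 0.0318), were lower. Against WT, 0 genes were called in any line among 5 monocyte, 6 neutrophil, 6 dendritic cell, 8 neuron, 7 astrocyte, 7 hepatocyte and 7 stellate cell genes tested, and none of the 10 lymphocyte markers was abundant enough to test.

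In the liver, Itgam had 65.5, 57.3 and 51.9 normalised counts in WT and 143, 212 and 65.5 in tRNA-Phe-1-1-/-. It had 32.1, 32.6 and 24.9 in tRNA-Phe-2-1-/- and 76.8, 32.6 and 50.3 in tRNA-Phe-3-1-/- livers. Replicates A and B of tRNA-Phe-1-1-/- stood above all other livers, and replicate C was level with the highest WT sample. Itgam was higher than in tRNA-Phe-2-1-/- livers by 2.05 ± 0.40 on the log2 scale (adjusted p = 0.00619 in limma) and higher than in those of tRNA-Phe-3-1-/- by 1.31 ± 0.40 (adjusted p = 0.0454). The difference from WT was 1.11 ± 0.40 (adjusted p = 0.0792). Against WT, edgeR and DESeq2 on recovered reads passed it (adjusted p = 0.048 and 0.0146), and so did limma without tRNA-Phe-1-1-/- replicate C (1.57, adjusted p = 0.0121). The difference from tRNA-Phe-2-1-/- passed without each of the 6 libraries in turn, with adjusted p from 0.00133 to 0.0274. That from tRNA-Phe-3-1-/- passed without 2 of the 6 and was lost without tRNA-Phe-1-1-/- replicate A or B or tRNA-Phe-3-1-/- replicate B or C (adjusted p up to 0.147).

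RNA of neutrophil markers was also higher in tRNA-Phe-1-1-/- livers, and neutrophils carry ITGAM on their surface. The 10 neutrophil markers summed to 4.47 to 11.7 RPM in tRNA-Phe-1-1-/- and to 1.23 to 2.14 in WT, 1.154 to 2.72 in tRNA-Phe-2-1-/- and 1.88 to 3.06 in tRNA-Phe-3-1-/-. Of these markers 3 were abundant enough to test, in a comparison where 17.3% of all genes were called. All 3 were higher in tRNA-Phe-1-1-/- than in WT: S100a9 (2.56 ± 0.65), S100a8 (2.52 ± 0.70) and Csf3r (1.27 ± 0.36). S100a9 had 95.0, 143 and 54.2 in tRNA-Phe-1-1-/- and 5.86, 23.7 and 20.8 in WT. All 10 were above 0 in the tRNA-Phe-1-1-/- group, and 1 of them was at 0 in all WT libraries. The 8 monocyte markers summed to 8.003 to 18.8 RPM in tRNA-Phe-1-1-/- and 6.93 to 9.91 in WT, with 0 of 7 tested called. Their part in the Itgam result was not tested.

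P2ry12 had 49.8, 44.5 and 48.0 in WT livers and 34.8, 32.6 and 36.8 in tRNA-Phe-1-1-/-. It had 65.7, 64.2 and 44.2 in tRNA-Phe-2-1-/- and 81.6, 55.1 and 76.4 in tRNA-Phe-3-1-/- livers. The tRNA-Phe-1-1-/- samples were the 3 lowest of the 12. P2ry12 was lower in tRNA-Phe-1-1-/- than in tRNA-Phe-3-1-/- (log2 difference -0.99 ± 0.22, adjusted p = 0.0127), and this call held without each of the 6 libraries (adjusted p from 0.0104 to 0.0447). The difference was -0.70 ± 0.22 from tRNA-Phe-2-1-/- (adjusted p = 0.0527) and -0.44 ± 0.22 from WT (adjusted p = 0.204). Recovered reads were 36 to 85 per library.

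Tmem119 had 37.1, 10.9 and 25.9 in WT livers and 86.6, 43.2 and 67.5 in tRNA-Phe-1-1-/-. It had 48.9, 7.61 and 16.6 in tRNA-Phe-2-1-/- and 14.4, 16.9 and 11.1 in tRNA-Phe-3-1-/- livers. The tRNA-Phe-1-1-/- range overlapped only that of tRNA-Phe-2-1-/-, through replicate A of that line. Tmem119 was higher than in tRNA-Phe-3-1-/- livers by 2.11 ± 0.60 on the log2 scale (adjusted p = 0.0345). The differences of 1.71 ± 0.60 from tRNA-Phe-2-1-/- and 1.48 ± 0.60 from WT did not pass (adjusted p = 0.0738 and 0.112). This call, at 7 to 92 reads per library, was lost without any 1 of the 6 libraries except tRNA-Phe-1-1-/- replicate B (adjusted p from 0.0434 to 0.113).

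**Figure D2:**
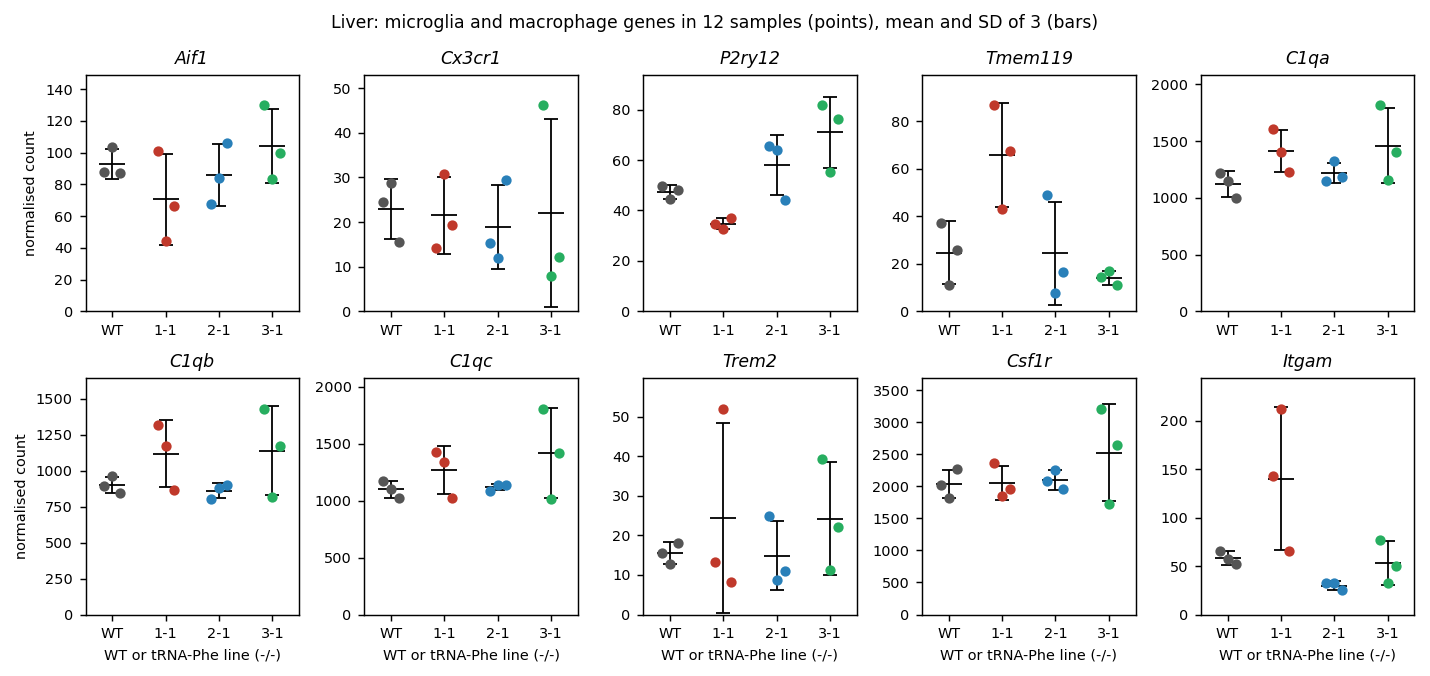
Normalised counts (y axis, from 0) of the 10 genes in the 12 liver samples, by genotype (x axis), drawn as for the brain. Itgam and Tmem119 are high in tRNA-Phe-1-1-/-, P2ry12 is lowest there, and tRNA-Phe-3-1-/- replicate A (left point) is the highest liver for C1qa, C1qb, C1qc, Csf1r, Aif1, Cx3cr1 and P2ry12.

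The C1q chains and Csf1r were not called in any liver comparison. C1qa had 1216, 1148 and 996 in WT, 1603, 1403 and 1231 in tRNA-Phe-1-1-/-, 1147, 1321 and 1188 in tRNA-Phe-2-1-/- and 1814, 1160.1 and 1403 in tRNA-Phe-3-1-/- livers. Its log2 differences from WT were 0.33, 0.12 and 0.36 (SE 0.15), with adjusted p of 0.166, 0.743 and 0.278. C1qb differed by 0.30, -0.06 and 0.30 and C1qc by 0.19, 0.03 and 0.33. Csf1r had 2014, 1825 and 2264 in WT and 3212, 1718 and 2642 in tRNA-Phe-3-1-/-. Replicate A of tRNA-Phe-3-1-/- held the highest summed level of the 10 genes (206 RPM) and replicate B the lowest (117), so this line spanned the whole range of the livers. Kupffer cell markers summed to 489 to 681 RPM in that line and 407 to 512 in WT.

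The differences of Trem2 and Cx3cr1 had the largest standard errors in the liver beside that of Tmem119. Trem2 had 8 to 59 reads per library and Cx3cr1 7 to 48, and standard errors of their log2 differences were 0.64 and 0.58. Trem2 had 15.6, 12.8 and 18.2 normalised counts in WT and 13.2, 52.0 and 8.19 in tRNA-Phe-1-1-/- livers, with the single high value in replicate B. Cx3cr1 ranged from 7.88 to 46.1, and both ends were tRNA-Phe-3-1-/- samples. Aif1 had 87.9, 104 and 86.9 in WT and 101, 44.1 and 66.5 in tRNA-Phe-1-1-/- livers (log2 difference -0.47 ± 0.29, adjusted p = 0.298).

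By count, limma called 0 of the 10 genes in tRNA-Phe-1-1-/- against WT livers, where 17.3% of the 15856 genes tested were called. At an unadjusted p under 0.05 there were 2 members beside 5044 of all genes. edgeR and DESeq2 each called 1 member, Itgam, beside 2703 and 3482 genes. Against WT, 0 members were called in tRNA-Phe-2-1-/- livers beside 0.132% of all genes and 0 in tRNA-Phe-3-1-/- beside 0.883%. At an unadjusted p under 0.05 there were 1 and 2 members, beside 2365 and 2550 genes. In both lines edgeR and DESeq2 called 0 members, beside 20 and 140 genes with edgeR and 495 and 767 with DESeq2. Between tRNA-Phe-1-1-/- livers and those of tRNA-Phe-2-1-/-, 1 of 10 members was called beside 15.9% of all genes. Between tRNA-Phe-1-1-/- livers and those of tRNA-Phe-3-1-/-, 3 of 10 were called beside 16.1%. With 10 genes, neither share is read as particular to the group. Livers of tRNA-Phe-2-1-/- set against those of tRNA-Phe-3-1-/- gave 0 members and 0% of all genes. There 0 members had an unadjusted p under 0.05 beside 1059 genes, and edgeR and DESeq2 called 0 beside 0 and 29. The F-test called 2 members, Itgam (adjusted p = 0.0229) and P2ry12 (adjusted p = 0.0388), beside 17% of all genes. The members' median log2 difference from WT was 0.20, -0.10 and 0.29 in the 3 lines, beside -0.0051, 0.00090 and 0.0086 over all genes. The comparisons of the lines with WT share the same 3 WT samples in each tissue.

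**Figure D3:**
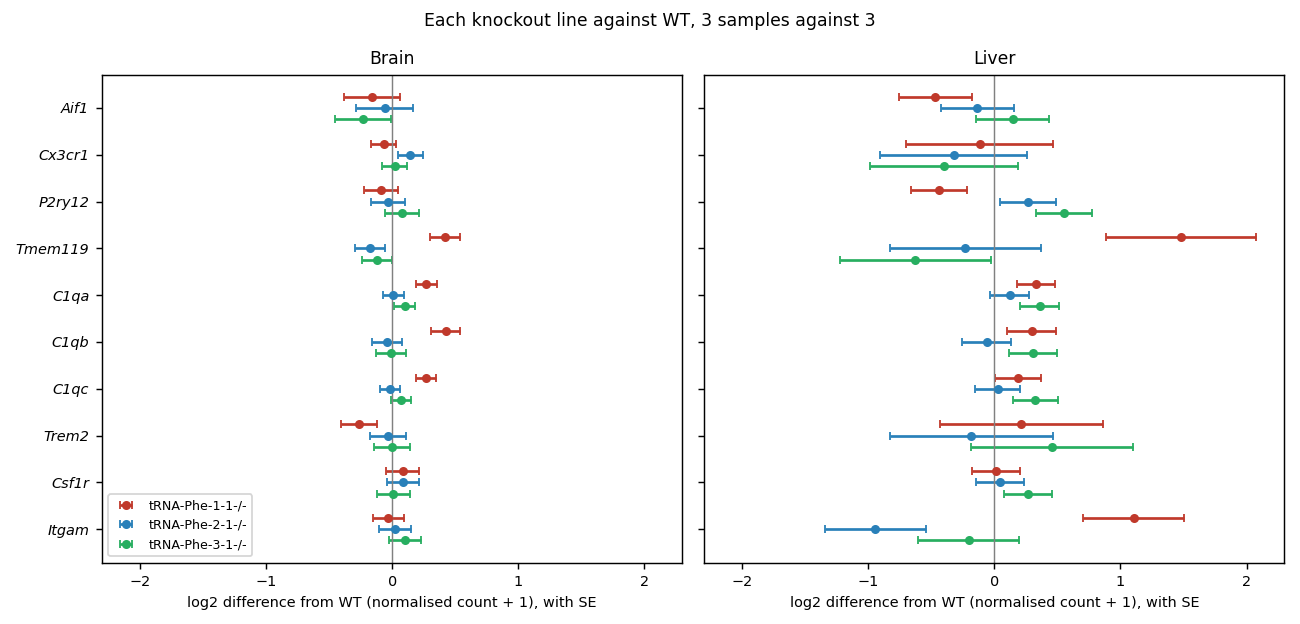
Log2 difference of each gene from WT (x axis, log2 of normalised count + 1) for the 3 knockout lines in brain (left) and liver (right). Points are limma estimates and bars 1 SE. In the brain Tmem119 and C1qb lie at 0.42 in tRNA-Phe-1-1-/-, and in the liver bars are wider, with Tmem119 at 1.48 and Itgam at 1.11.

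A ratio of 2 members was formed after their values were seen and is given without a test. The ratio of Tmem119 to P2ry12 normalised counts was 0.795 to 0.873 in tRNA-Phe-1-1-/- brains and 0.408 to 0.616 in the other 9 brains. In the livers it was 1.32 to 2.49 in tRNA-Phe-1-1-/- and 0.119 to 0.745 in the other 9. In both tissues the tRNA-Phe-1-1-/- samples were the 3 highest. The liver ratios rest on few reads.

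**Figure D4:**
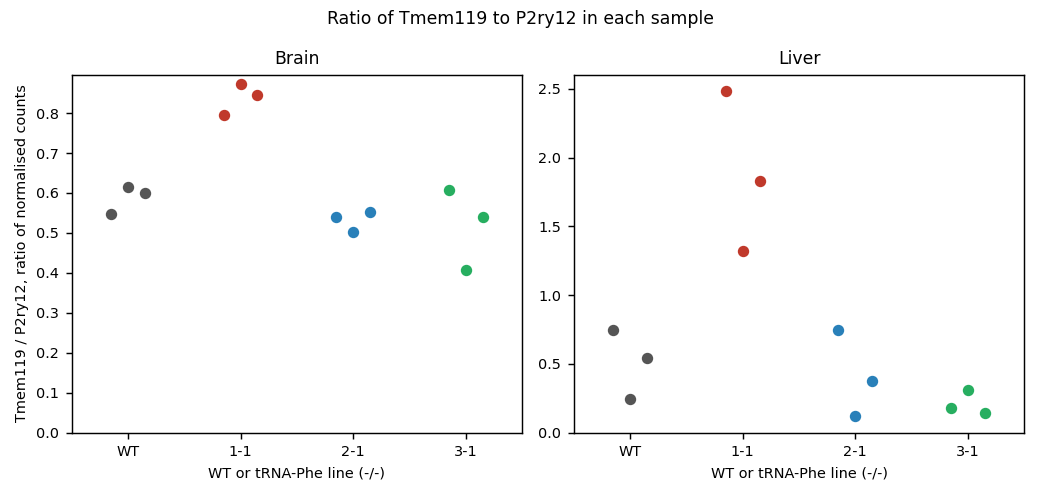
Ratio of Tmem119 to P2ry12 normalised counts in each sample (y axis, from 0, with its own scale for each tissue) by genotype (x axis). The 3 tRNA-Phe-1-1-/- points lie above all others in the brain (0.795 to 0.873) and in the liver (1.32 to 2.49).

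Of the receptors' partners and ligands 13 of 14 were tested in the liver. In tRNA-Phe-1-1-/- 2 were higher and 0 lower than in WT (median log2 difference 0.48, beside 17.3% of all genes called), 4 were higher than in tRNA-Phe-2-1-/- (beside 15.9%) and 3 higher than in tRNA-Phe-3-1-/- (beside 16.1%). Nothing is read from these counts about the list. Csf1, the ligand of CSF1R, had 318, 300.5 and 294 in WT and 775, 628 and 517 in tRNA-Phe-1-1-/- (log2 difference 1.05 ± 0.17, adjusted p = 0.00175). Il34, its other ligand, had 88.5, 107 and 102 in tRNA-Phe-1-1-/- and 20.8, 19.6 and 35.0 in tRNA-Phe-2-1-/- (1.98 ± 0.30, adjusted p = 0.00148), and did not pass against WT (0.75 ± 0.30, adjusted p = 0.106). Runx1 was also higher than in tRNA-Phe-2-1-/-. These genes have sources other than macrophages in the liver, and Csf1r itself did not pass.

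The counts of macrophage and inflammatory genes called in tRNA-Phe-1-1-/- against WT livers stand beside the same 17.3% of all genes, which the Kupffer and activated microglia lists were near. Of 13 Kupffer genes 2 were higher than in WT, the haemoglobin scavenger receptor Cd163 (1.67 ± 0.27, adjusted p = 0.00195) and Nr1h3 (0.23 ± 0.07, adjusted p = 0.047), with a list median of 0.04. Vsig4, a complement receptor of Kupffer cells, was lower than in tRNA-Phe-3-1-/- (-0.61 ± 0.16, adjusted p = 0.0243). Of 21 activated microglia genes 17 were tested in the liver and 3 were higher than in WT: the chemokine Ccl6 (1.99 ± 0.30), the cytokine Il1b (1.91 ± 0.52) and Lgals3 (0.95 ± 0.27). Il1b had 298, 129.6 and 132 in tRNA-Phe-1-1-/- and 67.4, 22.7 and 59.7 in WT. Of 14 other homeostatic genes found in the tables, 12 were tested and Tgfbr1 alone was higher than in WT (0.49 ± 0.10, adjusted p = 0.00565). Of 11 complement genes outside C1q none passed against WT in limma, and C5ar1, the C5a receptor of neutrophils and macrophages, was higher than in tRNA-Phe-2-1-/- livers (2.38 ± 0.73, adjusted p = 0.0477) and than in those of tRNA-Phe-3-1-/- (2.44 ± 0.73, adjusted p = 0.0429).

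Genes of other cell types are given for the same comparison, again beside 17.3% of all genes called. The dendritic and stellate cell lists lay below that share and the other lists named here above it, on few genes each. Of 10 lymphocyte markers 7 were tested and 3 were lower in tRNA-Phe-1-1-/- than in WT, among them the B cell genes Ms4a1 (-2.57 ± 0.35) and Cd79b (-2.29 ± 0.39). The 8 endothelial markers summed to 231 to 282 RPM in tRNA-Phe-1-1-/- and 284 to 321 in WT, with Cldn5 (-0.96 ± 0.23) and Kdr (-0.47 ± 0.13) lower and Pecam1 higher. Of the border macrophage list, 8 of 9 genes were tested in the liver, and Cd163 and Lyve1 (1.06 ± 0.26, adjusted p = 0.0169) were higher. Of 8 dendritic cell genes 0 were called, and among stellate cell genes Dcn was higher (0.33 ± 0.10, adjusted p = 0.0422), 1 of 8. Among 8 hepatocyte genes Hnf4a was higher (0.50 ± 0.13) and Cyp3a11 lower (-3.08 ± 0.76). Lists of brain cells hold genes that liver also makes, and there 2 astrocyte genes were higher and 1 lower of 6 tested, 1 of 2 neuron genes was lower and 1 of 3 oligodendrocyte genes was lower. Their part in the members' values was not tested.

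The 2 tissues were set side by side as RPM, with no test because the tables were normalised separately. In WT, Cx3cr1 had 35.6 ± 2.71 (SD, n = 3) in brain and 0.539 ± 0.154 in liver, 66.1 times more in brain. Tmem119 had 16.9 ± 0.891 and 0.581 ± 0.308, a ratio of 29.0. P2ry12 had 28.7 ± 0.65 and 1.12 ± 0.0642, a ratio of 25.7, Trem2 9.12 ± 0.473 and 0.367 ± 0.0657, a ratio of 24.8, and Itgam 15.8 ± 0.834 and 1.37 ± 0.148, a ratio of 11.5. For these 5 genes each of the 12 brain samples lay above each of the 12 liver samples, whatever the genotype. The share of all genes that separate between the tissues in this way is not given here, so nothing is read from the count about the group.

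The other 5 genes overlapped between tissues over all genotypes. Within WT, the 3 brain samples lay above the 3 liver samples for C1qa (30.02 to 33.7 against 23.8 to 28.5 RPM), Csf1r (60.9 to 76.6 against 42.9 to 54.1) and Aif1 (2.76 to 3.33 against 2.06 to 2.44), and C1qb and C1qc alone of the 10 overlapped. The share of all genes that separate between WT brain and WT liver is not given either, so nothing is read from this about the group. C1qb had 21.9 ± 1.35 in WT brain and 21.2 ± 1.23 in WT liver, C1qc 25.9 ± 1.37 and 26.0 ± 1.49, and C1qa 31.7 ± 1.87 and 26.4 ± 2.39. Csf1r, the most abundant of the 10 by reads, had 66.7 ± 8.62 and 48.0 ± 5.61, and Aif1 had 3.01 ± 0.292 and 2.19 ± 0.217. A few hepatocyte transcripts take much of a liver library. Over reads outside the 10 most abundant genes of each library, brain-to-liver ratios fell to 57.7 for Cx3cr1 and 10.0 for Itgam and to 0.902 for C1qb, and 5 genes still did not overlap.

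**Figure D5:**
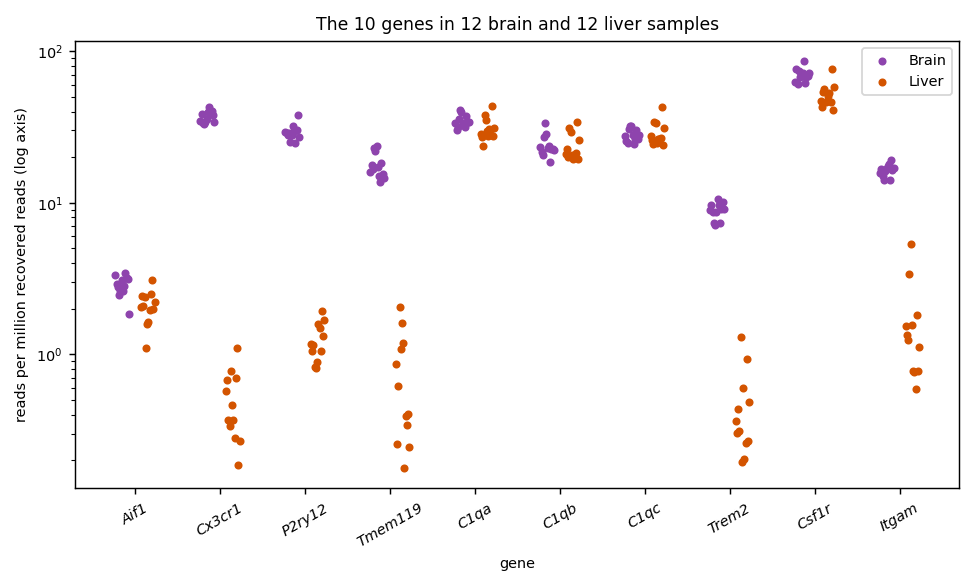
RPM (y axis, log scale) of the 10 genes in the 12 brain and 12 liver samples, all genotypes together. Cx3cr1, P2ry12, Tmem119, Trem2 and Itgam do not overlap between tissues, and Aif1, the C1q chains and Csf1r do.

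Levels of different genes can be compared only per length. Per kilobase of canonical transcript in WT brain, C1qa was highest at 29.2 ± 1.72 RPM, followed by C1qc (14 ± 0.742), P2ry12 (12.0 ± 0.272) and Csf1r (11 ± 1.42). Cx3cr1 (9.48 ± 0.721), C1qb (8.64 ± 0.532), Trem2 (8.38 ± 0.435), Tmem119 (7.50 ± 0.396), Itgam (4.22 ± 0.223) and Aif1 (0.878 ± 0.0852) followed. From P2ry12 down to Trem2, neighbours in this order overlapped in their 3 values, while the others did not. In WT liver the order was C1qa (24.3 ± 2.20), C1qc (14 ± 0.802), C1qb (8.37 ± 0.485) and Csf1r (7.94 ± 0.928), then Aif1 at 0.640 ± 0.0632 and the other 5 between 0.143 and 0.468. C1qb and Csf1r overlapped there, and so did neighbours from Itgam down. The canonical transcript of Aif1 is long for its coding part (3425 bases for 147 codons), and per kilobase of coding sequence Aif1 (6.82 ± 0.662) stood above Itgam (4.51 ± 0.238) in WT brain. The order in the middle also depended on the scale: per kilobase of coding sequence in WT brain, Cx3cr1 came next after C1qc (33.6 ± 2.55), C1qb rose above P2ry12 (28.8 ± 1.78 and 27.6 ± 0.625) and Csf1r followed (22.8 ± 2.94). The canonical transcript of C1qb is also long for its coding part (2532 bases for 253 codons). On the coding scale C1qa and C1qc no longer separated in WT liver (36.0 ± 3.25 and 35.2 ± 2.01).

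All 10 genes are read with tRNA-Phe, so their phenylalanine codons (TTT and TTC) were counted in the canonical coding sequence. Cx3cr1 had 36 in 354 codons (10.2%) and P2ry12 32 in 347 (9.22%), above 99.6% and 98.9% of 21565 protein-coding genes. Trem2 had 5 in 227 (2.20%), above 14.9% of genes. The other 7 ranged from 3.57% (Tmem119, 10 of 280, all TTC) to 5.31% (C1qa, 13 of 245), beside a median over all genes of 3.74%. In tRNA-Phe-1-1-/- brains Cx3cr1 and P2ry12 had log2 RNA differences from WT of -0.07 and -0.09. RNA levels do not measure translation.

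Genes whose pattern was most like the group were named among genes averaging 50 or more normalised counts, by Pearson's r with the mean of the members' centred log2 values over the 12 samples of a tissue. In the liver these were Fermt3 (r = 0.911), Itgal (0.908), Nckap1l (0.902), Col1a1 (0.886) and Slc7a7 (0.885) of 12455 genes. In the brain they were Rasgef1a (0.958), Pkig (0.934), Chst15 (0.934), Cdk17 (0.933) and Kcnj4 (0.923) of 15147. With genotype means removed, r stayed between 0.863 and 0.925 in the liver and between 0.922 and 0.979 in the brain. The values are descriptions: the points share size factors and libraries, and 1% of all genes reached 0.755 in the liver and 0.819 in the brain.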

How the data were processed

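Brain and liver RNA of 24 samples was sequenced by the authors on an Illumina NovaSeq. Per the methods, reads were trimmed with Trim Galore, aligned with STAR to GRCm38.p6 and quantified with Salmon, strand-aware, with bias correction. The deposited tables hold normalised counts per gene (a signal: estimated counts divided by a size factor per sample, by the authors with DESeq2). The 12 deposited tables of the authors' comparisons (log2 fold changes and s-values) were not used.

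Every value was within 1e-06 reads of a whole multiple of its column's step (100% of values), which gave whole recovered reads for depth and count tests. Symbols came from GENCODE M39, lengths and codons from its canonical transcripts; positions and promoters are RefSeq's for GRCm38.p6. Protein sequences were not analysed here. Log2(normalised count + 1) was tested within each tissue with limma 3.58.1 (R 4.3.3, variance trend, 12 samples) over genes with a mean of at least 10. P-values were two-sided, Benjamini-Hochberg adjusted over all genes tested, with a threshold of 0.05. Differences on this scale understate the change of low genes. edgeR 4.0.16 and DESeq2 1.42.0 were alternatives on recovered reads. Genotype came from the labels, and the methods name at least 3 mice per genotype without tying each library to an animal, so p-values measure the spread between these samples. Intervals cover no batch, since none is labelled. With 3 samples against 3, an exact permutation test cannot give a p under 0.10.

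The members and 16 other lists (166 of 167 genes found) were chosen with earlier results of these data known. Named genes were all members, then from each list up to 3 genes called in any comparison, otherwise the gene with the lowest F-test p. Other genes named, and the ratio of Tmem119 to P2ry12, were chosen after their values were seen. Some genes of the lists are counted but not reported by name here.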

Additional observations from a re-analysis of the deposited data

How the results depend on the processing

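Of the 60 log2 differences of members from WT, 642 of 651 values under alternatives other than leaving out a library kept their direction and their side of the threshold and 4 passed where limma had not (Tmem119 and C1qb in brain with DESeq2, Itgam in liver with edgeR and DESeq2). The 5 that changed sign were all near 0: Trem2 in tRNA-Phe-3-1-/- brains, 0.00093 under rescaling by trimmed means, 0.0052 with edgeR and 0.0034 with DESeq2; Cx3cr1 in tRNA-Phe-1-1-/- livers, 0.00087 under quantile normalisation; and Tmem119 in tRNA-Phe-2-1-/- livers, 0.0074 with edgeR. Counts of members called in the brain became 2 (tRNA-Phe-1-1-/- against WT), 3 (against tRNA-Phe-2-1-/-), 2 (against tRNA-Phe-3-1-/-) and 3 (F-test) with DESeq2, and 1 against tRNA-Phe-2-1-/- with a mean of at least 50. The call of Tmem119 against tRNA-Phe-3-1-/- brains was lost (0 members) without a filter on low values, under quantile normalisation, without the variance trend, with a replicate block and with only the 2 groups compared. In the liver the count for tRNA-Phe-1-1-/- against WT became 1 with edgeR and 1 with DESeq2, that against tRNA-Phe-2-1-/- 2 under quantile normalisation, without the variance trend, with a replicate block and with DESeq2, that against tRNA-Phe-3-1-/- 1 without the filter and 1 with only the 2 groups compared, and the F-test's 1 without the filter. The cause was not tested. Across all genes, DESeq2 called 874 in tRNA-Phe-1-1-/- against WT brains beside limma's 202, and where limma called 0 (with 1071, 2373, 1910 and 1059 at an unadjusted p under 0.05) it called 21, 373 and 166 in the brain and 29 in the liver, and edgeR called 0. All-gene counts beyond 1.5 times the main ones were, for tRNA-Phe-1-1-/- brains against WT (202), 95 without the filter and 103 without the variance trend; set against those of tRNA-Phe-2-1-/- (102), 62 without the trend, 6 with only the 2 groups and 671 with DESeq2; set against those of tRNA-Phe-3-1-/- (406), 222, 236, 5 and 1317 for no filter, no trend, 2 groups and DESeq2; and for the brain F-test (122), 71, 49, 66 with the block and 1582 with DESeq2. In the liver, tRNA-Phe-1-1-/- against WT fell from 2751 to 1808 and against tRNA-Phe-3-1-/- from 2550 to 931 with only the 2 groups, the F-test rose from 2688 to 4586 with DESeq2, tRNA-Phe-2-1-/- against WT went from 21 to 0 (no trend), 167 (2 groups) and 495 (DESeq2), and tRNA-Phe-3-1-/- from 140 to 33, 8 and 767. Counts of 0 became at most 6 under the alternatives other than DESeq2.

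Replicate letters were not taken to pair the samples, since no source ties a letter to a shared litter or day and not every same-letter pair correlated over 0.1: 7 of 18 pairs did in the brain and 3 of 18 in the liver. The median correlation of same-letter deviations was 0.034 (brain) and -0.025 (liver), with ranges of -0.16 to 0.49 and -0.29 to 0.24, and 7 of 12 brain and 3 of 12 liver samples correlated best with their own letter, a hint from the data and not from the design. The block ended the brain call of Tmem119 (adjusted p = 0.0536). With the letter as a replicate block, all-gene calls for tRNA-Phe-1-1-/- against WT were 173 in the brain and 2347 in the liver, those for tRNA-Phe-2-1-/- livers fell from 21 to 1 and those for tRNA-Phe-3-1-/- livers from 140 to 9.

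Leaving out 1 library at a time moved the counts of members called to 0 to 1 for brains of tRNA-Phe-1-1-/- set against those of tRNA-Phe-3-1-/-, and in the liver to 0 to 1 against WT, 1 to 2 against tRNA-Phe-2-1-/-, 1 to 2 against tRNA-Phe-3-1-/- and 0 to 2 for the F-test. Without 1 library a lone pair remains and the spread is pooled over all groups. No called value changed sign. Log2 differences from WT that changed sign, none of them called, had these ranges. In tRNA-Phe-1-1-/- brains, Cx3cr1 -0.11 to 0.015 and Itgam -0.073 to 0.051. In tRNA-Phe-2-1-/- brains, Aif1 -0.17 to 0.019, P2ry12 -0.12 to 0.082, C1qa -0.021 to 0.044, C1qb -0.11 to 0.076, C1qc -0.067 to 0.030, Trem2 -0.14 to 0.13, Csf1r -0.046 to 0.22 and Itgam -0.050 to 0.14. In tRNA-Phe-3-1-/- brains, Aif1 -0.37 to 0.049, Cx3cr1 -0.042 to 0.11, P2ry12 -0.070 to 0.21, C1qb -0.050 to 0.025, Trem2 -0.064 to 0.059 and Csf1r -0.053 to 0.13. In tRNA-Phe-1-1-/- livers, Cx3cr1 -0.40 to 0.14, Trem2 -0.52 to 0.74 and Csf1r -0.090 to 0.092. In tRNA-Phe-2-1-/- livers, Aif1 -0.30 to 0.025, Tmem119 -0.90 to 0.36, C1qc -0.025 to 0.072, Trem2 -0.60 to 0.11 and Csf1r -0.029 to 0.13. In tRNA-Phe-3-1-/- livers, Aif1 -0.024 to 0.29, Cx3cr1 -1.11 to 0.096 and Itgam -0.51 to 0.099.

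Reads were fewest for Trem2, Cx3cr1, Tmem119, P2ry12 and Itgam in the liver (7 to 241 per library) and for Aif1 in both tissues (62 to 160 in the brain). The part of counting error in their spread was not tested.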
